A study of Homo sapiens with 6 samples.

Results

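LX-2 is an established human cell line derived from hepatic stellate cells, the vitamin A-storing pericytes of the liver that turn into matrix-secreting myofibroblasts when the organ is injured. The genes described here are all those in a deposited expression table as measured in control LX-2 cells, that is, the 3 libraries labelled siCTL of the 6 libraries in the series. The remaining libraries come from cells given an siRNA against ADAMTS12 and were not compared. ADAMTS12 itself, a secreted metalloprotease, was listed in the control libraries at 13709, 12235 and 13423, and 14 of 19 ADAMTS protease genes were expressed by the limit given below. Control cells were wild type, carried no targeted change, and had been transfected by lipofection with a negative control siRNA for 48 h in medium with 4.5 g/l glucose and 10% fetal calf serum. The values therefore describe transfected, serum-fed cells of a line grown on its own, and untransfected cells were not analysed here. Poly(A)-selected, stranded libraries were made from 500 ng of total RNA with integrity numbers between 9.2 and 9.9. The labels number the libraries 1 to 3 and do not say whether they came from separate cultures, so the SDs given here (n = 3) may be partly technical. With 1 group and no contrast, no test was made, and each statement rests on the values in the 3 libraries.

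A resting stellate cell stores retinyl esters in lipid droplets and expresses few contractile or fibrillar proteins. After injury, platelet-derived growth factor (PDGF) and transforming growth factor beta (TGF-beta) drive it to divide, to assemble actin stress fibres and to secrete fibrillar collagen, fibronectin and protease inhibitors. Cultured stellate cells take on this activated state on plastic, and the labels call LX-2 an activated hepatic stellate cell.

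Of 60669 genes in the table, 15594 (25.7%) were expressed, defined here as a mean of at least 10 normalized counts over the 3 libraries. A further 35280 (58.2%) were listed at 0 in all 3 libraries, and 9795 lay between. Among the 19910 protein-coding genes, 12820 (64.4%) were expressed and 4584 (23.0%) were listed at 0. These shares are the background against which the gene lists below are read. The lists held 1242 distinct genes, of which 699 were expressed and 296 were at 0. Close to the limit, 50 of them had a mean from 5 to below 10 and 50 a mean from 10 to below 20. The deposited values summed to 33.58, 33.62 and 34.07 M (1e6) in replicates 1, 2 and 3, but these are sums of scaled values, and the read depth behind each library is not given. A gene listed at 0 is therefore a listing and not evidence that the gene was silent. Protein-coding genes held 98.5% ± 0.0504 of the summed values, and 11570 genes reached a mean of 100, 6483 a mean of 1000, 528 a mean of 10000 and 14 a mean of 100000.

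The RNA pool was spread over many genes. By deposited value, the highest single genes included those of the cytoskeleton, the matrix and the mitochondrial genome. As classes, collagens (1.14%) and matrix glycoproteins and proteoglycans (1.54%) held less of the values than cytosolic ribosomal protein genes (2.94%). The 10 most abundant genes held 5.51% ± 0.0995 of all values, the 100 most abundant 18.8% ± 0.465 and the 1000 most abundant 50.2% ± 0.380. FLNA, which encodes the actin-crosslinking protein filamin A, had the highest level, with 278712, 290672 and 255766 normalized counts in replicates 1, 2 and 3 (275050 ± 17739). All 3 of its values lay above every value of the next gene, FN1. FN1, encoding fibronectin, was listed at 193795, 210429 and 201363. VIM, the mesenchymal intermediate filament vimentin, stood at 192482, 212010 and 200462. MT-CO1, a cytochrome oxidase subunit encoded in the mitochondrion, stood at 179177, 196327 and 229946, and the actin ACTG1 at 201504, 205005 and 179861. FN1, VIM, MT-CO1 and ACTG1 thus overlapped, and their order by mean is not settled by these libraries.

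**Figure D1:**
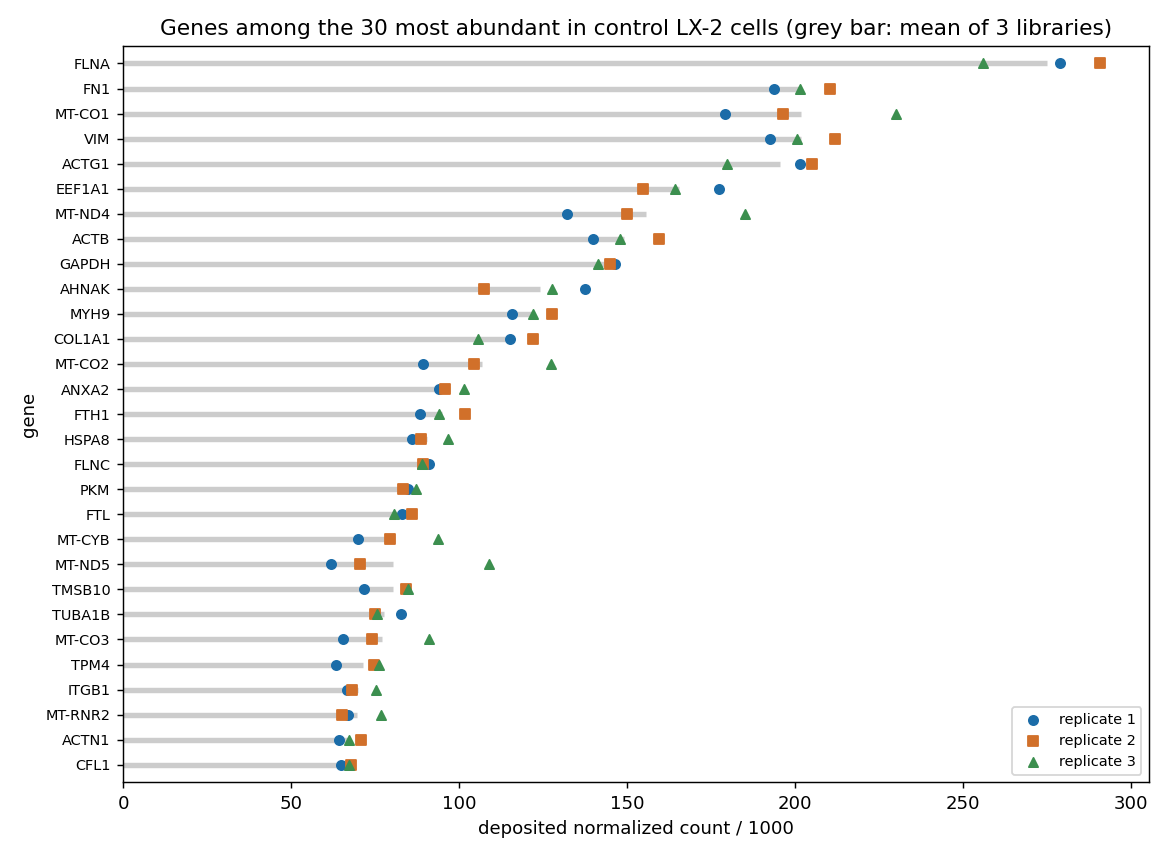
Deposited normalized counts (divided by 1000, linear axis from 0) of genes among the 30 most abundant, 1 row per gene, with a symbol per control library and a grey bar to the mean. FLNA stands apart at the top, and the mitochondrially encoded genes MT-CO1, MT-ND4, MT-CO2, MT-CYB, MT-ND5 and MT-CO3 have their highest symbol in replicate 3.

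A long transcript collects more reads than a short one, so levels of different genes are ordered below per length, as the normalized count divided by the length of the gene's merged exons and scaled to a sum of 1000000 per library (parts per 1000000, ppm). On that scale the order changed. TMSB10, a small actin-binding protein whose exons cover 496 bases, was highest at 19557 ± 1373 ppm, next to MT-CO2 at 18865 ± 2933. The other genes among the 15 highest included MT-CO1, MT-ND4, MT-CO3, MT-ATP6, MT-CYB, MT-ND4L, MT-ND1 and MT-ND2 of the mitochondrial genome, the ferritin light and heavy chains FTL and FTH1, the actin ACTG1 and the glycolytic enzyme GAPDH. FLNA fell from rank 1 to rank 24 and FN1 from rank 2 to rank 47. FTL stood at 11481 ± 555 ppm and FTH1 at 5648 ± 355, a ratio of 2.04 ± 0.121 that was 1.23 with the longest transcript as the length. These subunits form the iron-storing ferritin shell. The 37 mitochondrially encoded genes took 2.89% ± 0.455 of the deposited values and 11.8% ± 1.68 per length. The 85 cytosolic ribosomal protein genes took 2.94% ± 0.0651 of the values and 4.22% ± 0.136 per length.

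Several of the most abundant genes encode actin or proteins that hold actin filaments together, a class of genes known to be driven by serum response factor through its binding element, the CArG box. The 250 bases before the transcription start were searched in RefSeq promoter windows (GRCh38.p14). Only exact matches to CCWWWWWWGG (W for A or T), which reads the same on both strands, were counted. An element with any other letter in it was missed, so a gene without a match may still carry one. A gene with several listed starts was searched at each of them. Of the 100 protein-coding genes with the highest level, 69 had an entry, and 4 of these (5.80%) held a CArG box: FLNA, ACTG1, ACTN1 and TPM4. Over all 15119 protein-coding genes with an entry the share was 1.63%, and among expressed genes it was 1.54%. It was 2.79% for genes with a mean of at least 10000 and 2.13% for genes listed at 0 in all 3 libraries. In the actin list, 4 of the 5 genes with an entry held an exact match, namely ACTG1, ACTG2, ACTC1 and ACTA1, and none was found for ACTA2. The matches did not follow the level, since ACTA1 was near 0 and ACTA2 was expressed. The stretches below, written 5′ to 3′ on the gene's strand with the CArG box in capitals, are shown because they are the matches found among the most abundant genes, with the smooth muscle gamma actin ACTG2, which held 2 matches.
FLNA: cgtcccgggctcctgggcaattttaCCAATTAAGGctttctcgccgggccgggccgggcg
ACTG1: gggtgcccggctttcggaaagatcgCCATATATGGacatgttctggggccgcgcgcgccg
ACTN1: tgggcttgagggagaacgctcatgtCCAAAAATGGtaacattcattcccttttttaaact
TPM4: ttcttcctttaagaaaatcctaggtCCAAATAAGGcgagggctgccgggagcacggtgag
ACTG2: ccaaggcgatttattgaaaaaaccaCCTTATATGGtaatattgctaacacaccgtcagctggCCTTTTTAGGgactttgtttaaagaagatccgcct
They lie at chrX:154374694-154374753 on the minus strand (FLNA), chr17:81512859-81512918 on the minus strand (ACTG1), chr14:68977703-68977762 on the minus strand (ACTN1), chr19:16067340-16067399 on the plus strand (TPM4) and chr2:73892873-73892969 on the plus strand (ACTG2). The element begins 94 bases before the start in both FLNA and ACTG1, 171 bases before it in ACTN1 and 173 bases before it in TPM4. For ACTN1 and TPM4 it was found at 1 of several listed starts. SRF itself was expressed, at 3697, 4106 and 4022 normalized counts. A match to letters is a description of these windows and not a bound site.

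Promoters of expressed and unexpressed genes differed in composition in the same windows. CpG dinucleotides, which are kept in the unmethylated CpG islands of many housekeeping promoters and are scarce elsewhere, had a median of 20.3 per 250 bases over 10327 expressed protein-coding genes (quartiles 14 and 27). Over the 3056 listed at 0 in all 3 libraries the median was 4 (quartiles 2 and 11.5). Fewer than 8 CpGs were found in 8.78% of the expressed genes and in 66.0% of those at 0. The letters TATAAA on the gene's strand, between 40 and 16 bases before the start, were found in 2.17% of the expressed genes and 9.69% of those at 0. At high levels the share was above that of all expressed genes. It was 5.58% for genes with a mean of at least 10000 and 8.70% for the 69 entries among the 100 most abundant. The 150 bases before the start of FN1, the second gene by level, and of ALB, the albumin gene of hepatocytes and listed at 0, are shown with each CpG in capitals.
FN1: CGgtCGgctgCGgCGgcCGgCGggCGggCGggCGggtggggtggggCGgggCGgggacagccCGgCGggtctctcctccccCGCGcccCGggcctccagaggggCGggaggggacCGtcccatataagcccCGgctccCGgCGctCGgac
ALB: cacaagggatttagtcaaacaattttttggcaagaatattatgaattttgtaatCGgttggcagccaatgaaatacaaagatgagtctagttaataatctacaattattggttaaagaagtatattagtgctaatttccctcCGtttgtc
The FN1 stretch (chr2:215436069-215436218, minus strand) holds 22 CpGs and the ALB stretch (chr4:73404137-73404286, plus strand) holds 2.

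The 7 genes taken as marks of the line (VIM, COL1A1, TNC, ACTA2, KRT18, COL1A2 and PDGFRB) were all expressed, each with a mean above 1000 normalized counts. Per length, VIM stood at 4635, 4962 and 4590 ppm in replicates 1, 2 and 3. COL1A1, the alpha 1 chain of type I collagen, stood at 1458, 1498 and 1272. TNC, the matrix glycoprotein tenascin-C, followed at 596, 537 and 553. These 3 genes did not overlap with each other. ACTA2, the smooth muscle alpha actin that defines myofibroblasts, was less even, at 338, 539 and 381 ppm (419 ± 106). Its highest value exceeded the lowest of TNC, and its range enclosed that of KRT18 (372, 394 and 345), an epithelial-type keratin, so these neighbours in the order were not separated by their spread. COL1A2 (100.9 ± 14.2) and the PDGF receptor PDGFRB (24.6 ± 3.39) came last, and neither overlapped with another marker. By deposited level the same genes ranked 4 (VIM), 13 (COL1A1), 50 (TNC), 505 (ACTA2), 548 (KRT18), 604 (COL1A2) and 5206 (PDGFRB) in the whole table.

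**Figure D2:**
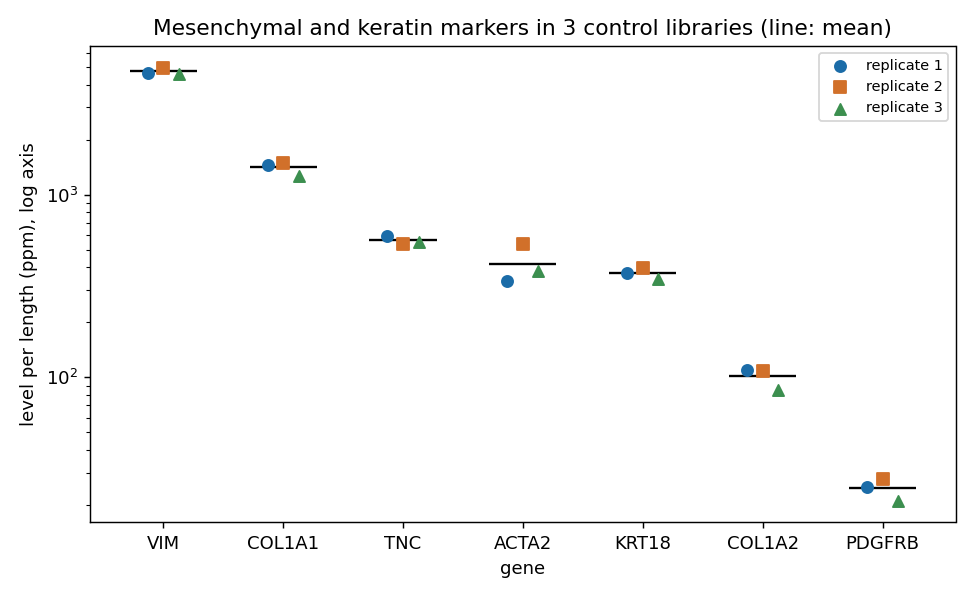
Level per length (ppm, log axis) of the 7 marker genes, with a symbol per control library and a line at the mean. VIM, COL1A1, COL1A2 and PDGFRB are separated from their neighbours, while the ACTA2 symbols spread over the ranges of TNC and KRT18.

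The activation list named genes of the contractile apparatus, the matrix and its crosslinkers, and 32 of its 33 members were expressed (97.0%, against 64.4% of protein-coding genes), 20 of them with a mean of at least 10000. Besides FN1 and COL1A1 these included MYL9, the regulatory myosin light chain (55513 ± 3528), the collagen crosslinker LOXL2 (48794 ± 1214), the matricellular protein CCN1 (48463 ± 4361) and TPM1, a tropomyosin (46108 ± 1484). SPARC, a collagen-binding glycoprotein, stood at 40966 ± 1047. The exception was PDPN, encoding podoplanin, listed at 0 in all 3 libraries. Summed over the list, the libraries were within a narrow band, at 1003127, 1063452 and 1023988 normalized counts.

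Actin was almost wholly of the nonmuscle kind. Of the per-length level of the 6 actin genes, ACTG1 made up 57.8% ± 2.28 and ACTB 37.5% ± 1.82. The smooth muscle actins ACTA2 and ACTG2 made up 3.05% ± 0.634 and 1.60% ± 0.0821. ACTC1, the cardiac actin, held 0.0903% ± 0.0283, and the skeletal muscle actin ACTA1 was listed at 0, 3 and 0. ACTG1 exceeded ACTA2 by a factor of 24.7, 15.4 and 18.6 in the 3 libraries (19.6 ± 4.77), or 11.8 when each gene was divided by its longest transcript. The spread in that ratio came mainly from ACTA2, whose level was 8101, 13283 and 9609. All 9 tropomyosin and myosin light chain genes of the list were expressed, and 8 of them had a mean of at least 10000. Among the heavy chains, nonmuscle MYH9 exceeded nonmuscle MYH10 by 12.2 ± 0.519 per length. The smooth muscle heavy chain MYH11 was listed at 2, 1 and 0, and 7 further muscle heavy chain genes (MYH1, MYH2, MYH4, MYH6, MYH7, MYH8 and MYH13) were listed at 0.

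Type I collagen chains were far from equal in RNA. The protein is a heterotrimer of 2 alpha 1 chains and 1 alpha 2 chain, yet COL1A1 exceeded COL1A2 per length by 13.28, 13.82 and 15.04 in replicates 1, 2 and 3 (14.05 ± 0.901), and by 11.02 or 9.95 with the longest or a principal transcript as the length. COL1A1 made up 29.6% ± 0.892 of the per-length level of the 44 collagen genes, followed by the beaded-filament chains COL6A1 (13% ± 1.39) and COL6A2 (9.21% ± 0.648). The fibril-nucleating COL5A2 (7.49% ± 0.239) and COL5A1 (6.87% ± 0.123) and the basement membrane chains COL4A2 (7.24% ± 0.225) and COL4A1 (4.55% ± 0.0601) held smaller shares. COL5A1 was below COL5A2 (ratio 0.918 ± 0.0153), but above it with the longest transcript as the length (1.15). COL3A1, the other major fibrillar collagen of scar, was listed at 13200, 16235 and 10370. COL6A3, the third chain of collagen VI, stood at 93.7 ppm against 618 for COL6A1, a ratio of 6.69 ± 1.36.

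Expressed collagens numbered 29 of 44 (65.9%), close to the background share of 64.4%. COL10A1, COL19A1, COL22A1, COL23A1 and COL6A5 were listed at 0. Matrix glycoproteins and proteoglycans were expressed in 46 of 58 cases (79.3%). THBS2 and THBS1, matricellular thrombospondins, were at 722 and 271 ppm. The fibrillin FBN1 stood at 128 and the laminin chain LAMC1 at 381. ELN, encoding elastin, was listed at 0 in all 3 libraries, as were ASPN, CILP and MFAP2. Together the collagen list took 1.14% ± 0.0828 of the deposited values and the glycoprotein list 1.54% ± 0.0438.

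Genes of the resting stellate cell were mostly low. Of 30 members, 21 were expressed (70.0%, background 64.4%), but 13 were with a limit of a mean of 50 or of 1 ppm. The median of the means was 32.2 normalized counts and 3 of them passed 1000. These were ECM1, a secreted inhibitor of latent TGF-beta activation (6091, 6598 and 6974), the adhesion molecule ALCAM (5042, 5172 and 5223) and the lipid droplet coat PLIN2 (1821, 1431 and 1651). RELN, encoding reelin, was expressed at 988 ± 77.2. LHX2, a transcription factor that keeps stellate cells from activating, was expressed at 249, 321 and 323. LRAT, the enzyme that esterifies retinol for storage and the defining gene of the retinoid-storing cell, was listed at 0 in all 3 libraries. FCN3 was also at 0. GFAP was listed at 0, 0 and 3, DES at 0, 0 and 5, and CYGB, encoding the stellate cell globin cytoglobin, at 1, 2 and 1.

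Of 29 genes that handle retinoids and lipid droplets, 15 were expressed (51.7%) and 6 were at 0. The droplet coat PLIN3 (4363 ± 182), the retinol dehydrogenase RDH11 (2524 ± 72.9) and the triglyceride lipase PNPLA2 (2051 ± 135) reached a mean of 1000, as did PLIN2. ALDH1A3, which makes retinoic acid, was at 777, 472 and 687. ALDH1A1, which makes retinoic acid too, was at 0, and so were CYP26A1, PLIN5 and CIDEC. The retinoic acid receptors RARA (1489 ± 128) and RARB (231 ± 29.8) and the partner RXRA (1870 ± 71.8) were expressed.

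Markers of other liver cells were mostly low or at 0. In the hepatocyte list, 3 of 28 genes were expressed (10.7%) and 17 were at 0, among them ALB, APOA1, APOA2, APOB and AHSG. The exceptions were CPS1, the entry enzyme of the urea cycle, at 2032, 1941 and 1963, the lectin receptor ASGR1 at 98, 97 and 108, and SERPINA1 at 17, 19 and 18. The summed hepatocyte list was 2159, 2067 and 2105, nearly all of it CPS1. Macrophage genes were expressed in 3 of 18 cases and summed to 163, 191 and 149. Leukocyte genes were expressed in 3 of 20 cases and summed to 167, 163 and 140. The defining T cell genes CD3D and CD3E were at 0. Erythroid and platelet genes were expressed in 1 of 9 cases, ITGA2B.

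Some lineage markers were expressed without the rest of their set. Of 21 biliary and epithelial genes, 10 were expressed (47.6%). They included KRT18, KRT8 (6279 ± 385), SOX9 (1747 ± 186) and the anion exchanger SLC4A2, whereas EPCAM (0, 2 and 1), CDH1 (0, 0 and 1) and KRT19 (7, 6 and 5) were below the limit and CLDN7 and GRHL2 were at 0. KRT18 exceeded its partner KRT8 per length by 3.35 ± 0.104, and by 2.15 with the longest transcript as the length. Endothelial genes were expressed in 9 of 20 cases, among them EGFL7 (741, 975 and 819) and the receptor TIE1 (735, 624 and 697). PECAM1 was listed at 1, 5 and 7, CDH5 at 9, 12 and 10, and LYVE1 and STAB2 at 0. Of 12 mesothelial genes, 4 were expressed, among them BNC1 (2718 ± 50.1) and WT1 (525 ± 53.3), while MSLN was below the limit and MUC16 was at 0.

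Smooth muscle and pericyte genes were expressed in 12 of 16 cases (75%). CSPG4, the pericyte proteoglycan NG2, was listed at 21550, 20539 and 18722. SMTN, MCAM, CNN1 and MYOCD, the smooth muscle coactivator of serum response factor (635, 845 and 685), were expressed, and PLN was at 0. Other members were low: RGS5 was listed at 58, 90 and 74 and ABCC9 at 46, 39 and 55. KCNJ8 (3, 9 and 7), DES (0, 0 and 5) and MYH11 (2, 1 and 0) were below the limit. Of 11 portal fibroblast genes 5 were expressed (3 by a limit of 1 ppm), with THY1 (7366 ± 626) and FBLN2 (5576 ± 502) above a mean of 1000 and ELN, MFAP5, DPT and ENTPD2 below the limit or at 0. Whether these marker levels come from all cells or from a few of them cannot be told from bulk RNA, nor can fewer cells be told apart from less RNA per cell.

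**Figure D3:**
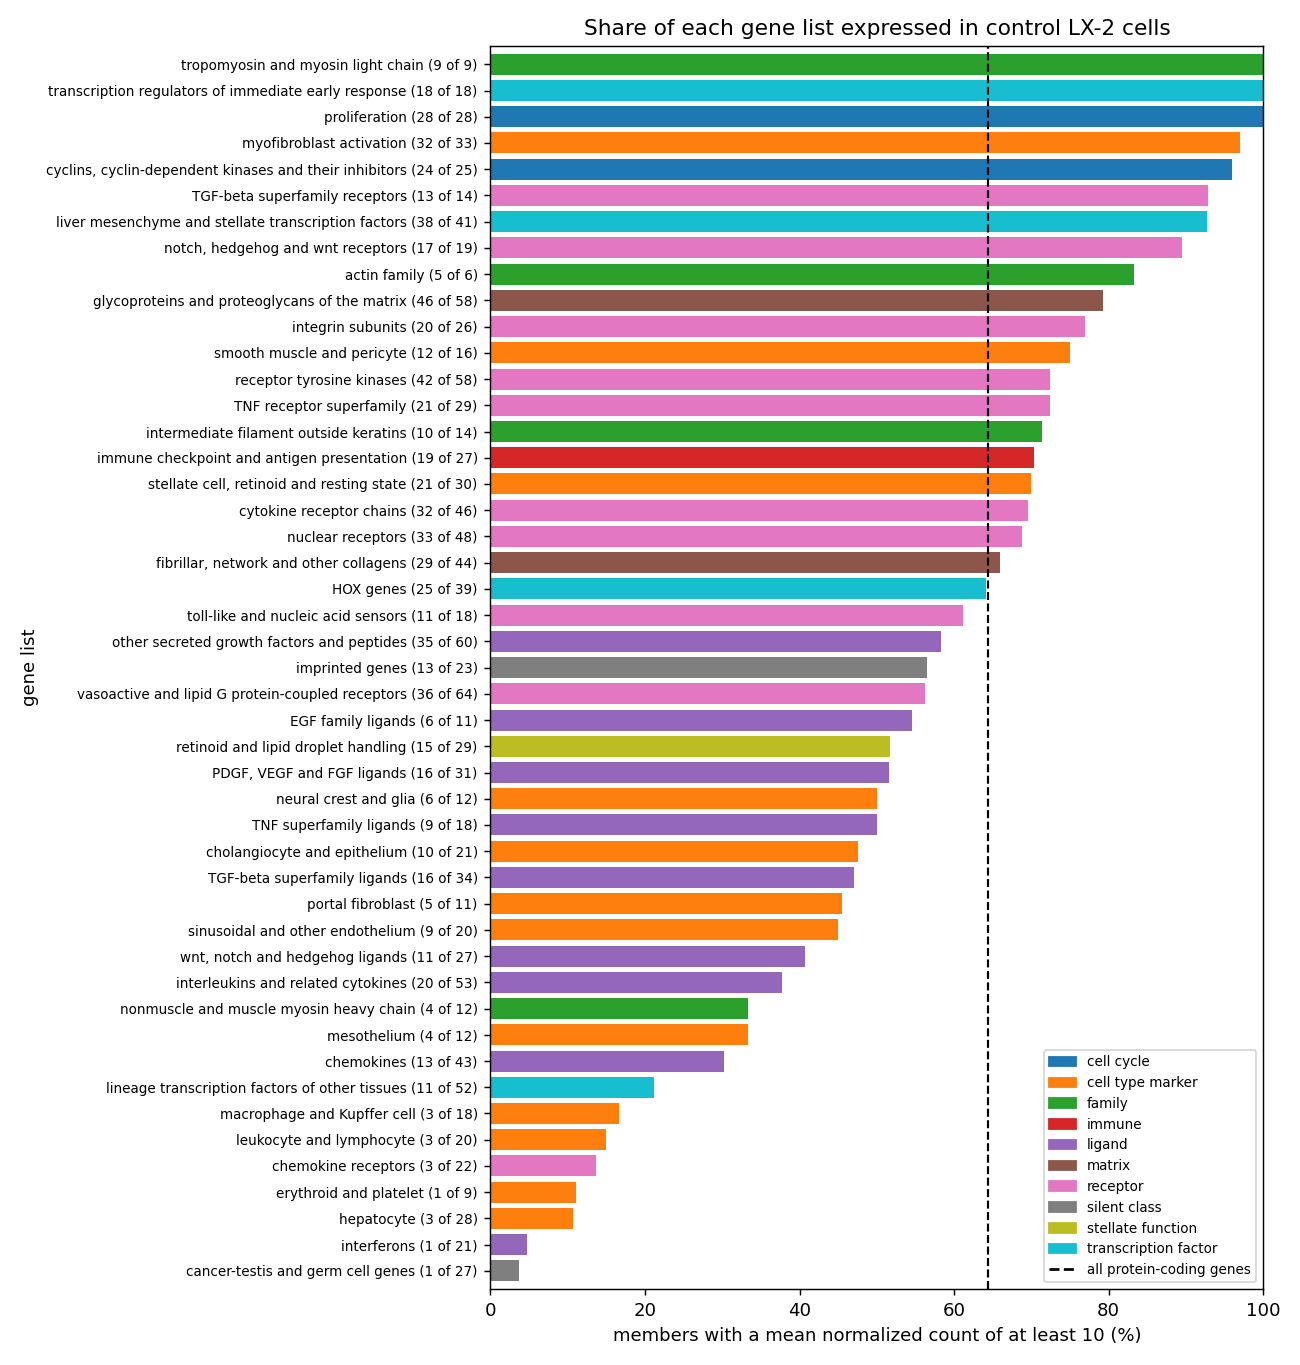
Share of the members of each gene list with a mean of at least 10 normalized counts (percent, linear axis from 0), coloured by the role of the list, with a dashed line at the 64.4% of all protein-coding genes. The proliferation list, the activation list and the tropomyosin and myosin light chain list reach or approach 100%, the myosin heavy chain list is at 33.3%, and the hepatocyte, leukocyte, chemokine receptor, interferon and germ cell lists stay far below the line.

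Of 58 receptor tyrosine kinases, 42 were expressed (72.4%, against 64.4% of protein-coding genes) and 6 were at 0. With a limit of a mean of 50 or of 1 ppm, 35 were expressed. AXL, the receptor for GAS6, was listed at 52430, 50857 and 50610, and per length it exceeded FGFR1 by 11.5 ± 0.590 (5.63 with the longest transcript). Per length it was followed by EPHA2 (199 ppm), MET (121), FGFR1 (104), EGFR (81.9) and the pseudokinase PTK7 (81.7). PDGFRB exceeded PDGFRA per length by 52.8, 66.0 and 52.7 (57.2 ± 7.68). KIT, best known from mast and germ cells, was expressed at 1427 ± 124. NTRK2, ERBB4 and FLT4 were below the limit, and EPHA3, EPHA6 and EPHA7 were at 0.

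All TGF-beta superfamily receptors of the list except AMHR2 were expressed (13 of 14, 92.9%). The co-receptor ENG (299 ppm) and the type II receptor TGFBR2 (210) stood above the type I receptor TGFBR1 (68.2). Cytokine receptor chains were expressed in 32 of 46 cases (69.6%). The shared chain IL6ST, through which the IL-6 family signals, stood at 318 ppm, 57.8 ± 1.22 times IL6R. IL7R, a receptor chain known from lymphocytes, was listed at 11833, 11033 and 12955, whereas IL2RG, the common chain it pairs with in lymphocytes, was at 2, 1 and 0. OSMR, for oncostatin M, was listed at 9572, 8592 and 9921. Among TNF receptors, 21 of 29 were expressed, led per length by TNFRSF12A (417 ppm), the receptor for TWEAK, and the death receptor TNFRSF10B (173).

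G protein-coupled receptors, mainly for vasoactive and lipid mediators, were expressed in 36 of 64 cases (56.3%), below the background share. OXTR, the oxytocin receptor, was listed at 5931, 7055 and 6049. Per length it stood at 170 ppm, above the thrombin receptor F2R (69.5), the adenosine receptor ADORA2B (65.4), the lysophosphatidic acid receptor LPAR1 (63.1) and the somatostatin receptor SSTR1 (54.2). Chemokine receptors stood out on the low side, with 3 of 22 expressed (13.6%) and 8 at 0. The 3 were CCR10 (117 ± 30.9), ACKR3 (93.3 ± 6.66) and ACKR4 (26.3 ± 3.21), of which the ACKR pair are scavengers. CXCR4 was listed at 1, 1 and 0.

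Nuclear receptors were expressed in 33 of 48 cases (68.8%). NR2F2, also known as COUP-TFII and a factor of vessel-associated mesenchyme, was listed at 14792, 18917 and 18796. Per length it stood at 327 ppm, against 93.2 for PPARD, 77.1 for the oxysterol receptor NR1H2 and 65.1 for the glucocorticoid receptor NR3C1. The hepatocyte receptors NR1I3 and HNF4G were at 0, and NR1I2 and HNF4A were below the limit. Integrin subunits were expressed in 20 of 26 cases (76.9%). ITGB1 stood at 1408 ppm, ITGA5, the fibronectin receptor chain, at 629, ITGA3 at 410 and the laminin receptor chain ITGA6 at 126. ITGA8, a stellate cell integrin, was listed at 0, 0 and 3. Of 18 pattern sensors, 11 were expressed. TLR4, the lipopolysaccharide receptor, reached a mean of 1000 (1149 ± 106), and TLR7, TLR8 and TLR9 were at 0. NOTCH2 was listed at 22416, 20986 and 21901, above NOTCH1 per length (157 against 34.9 ppm).

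Every ligand list lay below the 64.4% of all protein-coding genes. Of the PDGF, VEGF and FGF ligands, 16 of 31 were expressed (51.6%). VEGFB stood at 341 ppm, VEGFC at 188, FGF2 at 93.5, FGF5 at 92.1 and FGF1 at 57.2. PDGFA (22.8) was above PDGFB (5.90) and PDGFD (1.98). Of 34 TGF-beta superfamily ligands 16 were expressed (10 with a limit of a mean of 50) and 11 were at 0. TGFB1 was listed at 2970, 4201 and 3740, TGFB2 at 4447, 5859 and 5231, and the activin chain INHBA at 4218, 3433 and 4404. Per length, TGFB1 (114, 157 and 136 ppm) and TGFB2 (107, 137 and 120 ppm) overlapped, and INHBA (63.1, 49.9 and 62.6 ppm) lay below both. Among interleukins and related cytokines, 20 of 53 were expressed (37.7%). CSF1 (4370 ± 207), IL1B (3226, 1734 and 3359), IL32 (2284 ± 212) and IL11 (1067 ± 61.2), a cytokine of fibrosis, reached a mean of 1000, and IL6 was at 517, 392 and 605. TNF was at 0, with TNFSF11, FASLG and LTB. Its relative TNFSF4, the OX40 ligand, was listed at 3766, 4104 and 3626. Of 21 interferon genes 1 was expressed, IFNE (21, 14 and 21), and 19 were at 0.

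Chemokines were expressed in 13 of 43 cases (30.2%), and 25 were at 0. CXCL12, the stromal chemokine that attracts leukocytes and progenitors, was listed at 23390, 22726 and 22029. CXCL8, a neutrophil chemokine, was listed at 3137, 1253 and 3237. Among other secreted factors, FSTL1 (51186 ± 2568), CCN1, the glycoprotein hormone STC2 (24203 ± 1606), and the Wnt antagonists DKK3 (17532 ± 756), SFRP1 (11688 ± 819) and DKK1 (6067 ± 178) were among the 17 of 60 with a mean of at least 1000. EDN1, which encodes the vasoconstrictor endothelin 1, was listed at 2779, 2453 and 3078. IGF1 and IGF2, the insulin-like growth factors, were below the limit at 0.333 and 2.33. Wnt ligands were represented mainly by WNT5B (3666, 3965 and 3154) and WNT5A (1371, 1453 and 1285).

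Both partners were expressed in 60 of 98 ligand and receptor pairs, the ligand alone in 20, the receptor alone in 16 and neither in 2. The background of 64.4% is for single protein-coding genes. No background for pairs was computed, so the count of 60 cannot be called high or low. In 17 pairs both reached a mean of 1000. These included GAS6 with AXL, FN1 with ITGA5, COL1A1 with the collagen receptor kinase DDR2, TGFB1 and TGFB2 with TGFBR2, FGF1, FGF2 and FGF5 with FGFR1, HBEGF with EGFR, JAG1 with NOTCH2, WNT5A with ROR2, IL1B with IL1R1, and KITLG with KIT. KITLG (28.2 ppm) and KIT (31.0) were near each other in level. These counts say which RNAs were present in the same cultures, not that a protein was made or bound.

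Unequal pairs were of 2 kinds. Each pair names a single receptor, and other receptors of the same ligand need not be among the pairs. Where the ligand was expressed and the receptor was not, CXCL12 stood at 453 ppm with CXCR4 at 0.0367, and its scavenger receptor ACKR3 was at 5.00. TNC stood at 562 ppm with ITGA9, a chain of an integrin that binds it, at 0.00476. EDN1 stood at 165 ppm with the receptor EDNRB at 0.0144, and its other receptor EDNRA, at 0.923 ppm, was above the limit (mean of 32.3 normalized counts). CXCL8 had CXCR1 and CXCR2 below the limit, VEGFC had FLT4 below the limit, BDNF had NTRK2 below the limit, and ADM had CALCRL below the limit. In the reverse direction, OSMR (158 ppm) was expressed with OSM at 0, TNFRSF1A (132) with TNF at 0, IFNAR1 (67.4) with IFNB1 at 0, and EPHA2 (199) with EFNA1 at 0.255. IL7R (238) and MET (121) were expressed with IL7 at 0.678 and HGF at 0.329 ppm. HGF, which quiescent stellate cells are known to secrete, was thus just above the limit, with a mean of 26.7 normalized counts.

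**Figure D4:**
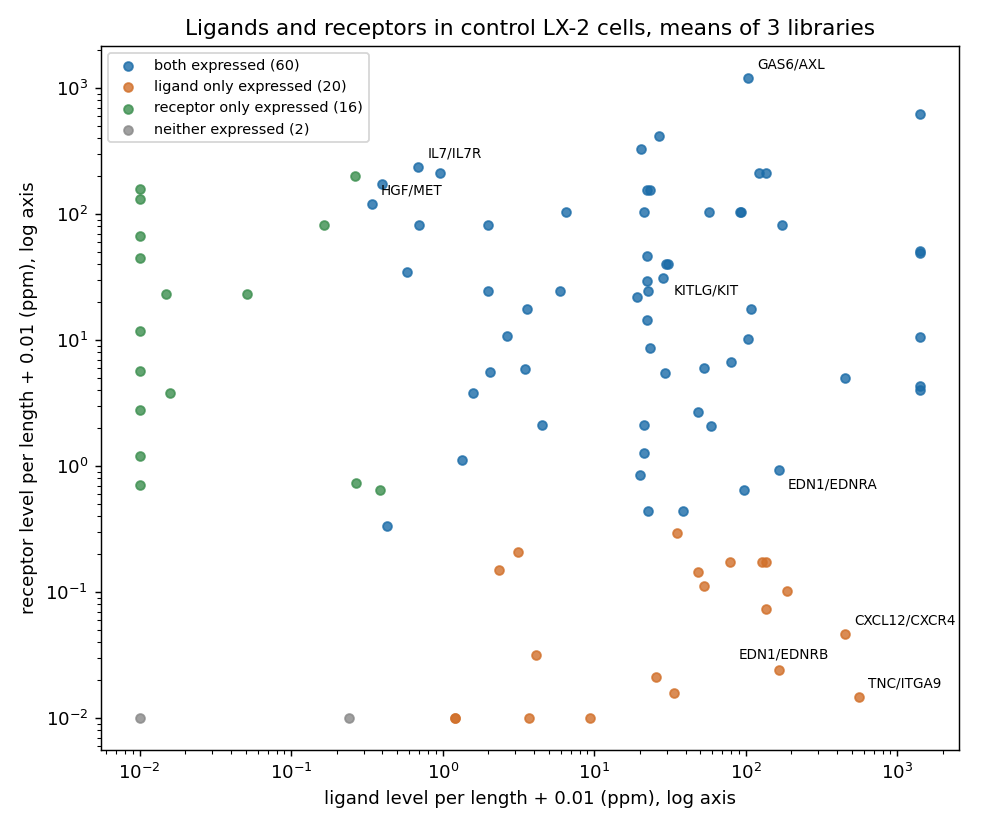
Level per length plus 0.01 (ppm, log axes) of the ligand against the receptor in 98 pairs, means of 3 control libraries, coloured by which partner reached the expression limit. GAS6 with AXL lies at the top, and CXCL12 with CXCR4, EDN1 with EDNRB and TNC with ITGA9 lie at the lower right; points on the lines at 0.01 are genes listed at 0.

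Transcription factors of liver mesenchyme were nearly all present. Of 41 such genes 38 were expressed (92.7%), and NR2F2, ETS1 (10124 ± 367) and KLF6 (10060 ± 808) reached a mean of 10000. TEAD1, the DNA-binding partner of YAP1, was at 8812 ± 352. FOXF2, MEOX1 and MEF2C were below the limit. All 18 immediate early regulators were expressed. FOSL1, a partner of Jun proteins, was listed at 22342, 25053 and 29512, and per length it stood at 1640 ppm against 362 for JUN. Among 52 lineage factors of other tissues 11 were expressed (21.2%) and 27 were at 0. With a limit of a mean of 50 or of 1 ppm, 7 and 6 were expressed. The expressed ones included GATA2 (2455, 2837 and 2699), known from blood and endothelium, and the cardiac factor NKX2-5 (245, 345 and 274).

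HOX genes, whose expressed set records the position along the body axis from which a cell descends, were expressed in 25 of 39 cases (64.1%, near the 64.4% of all protein-coding genes). The HOXB cluster gave 5940, 7386 and 7324 normalized counts summed over 10 genes, with 9 expressed. HOXC gave 1492 ± 240 over 9 genes with 8 expressed, and HOXA 482 ± 50.3 over 11 genes with 8 expressed. HOXD gave 24, 30 and 27 over 9 genes, none of which reached the limit. These sums are not per length and cover different numbers of genes. HOXB3 (2154 ± 175) and HOXB2 (1764 ± 242) reached a mean of 1000, and per length HOXB2 (91.2 ppm) stood above HOXB7 (67.1) and HOXB3 (34.9). HOXB1 and HOXD13 were listed at 0.

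The cells expressed the whole proliferation list, 28 of 28 genes, 27 of them above a mean of 1000. TOP2A, which untangles replicated DNA, was listed at 20902, 20304 and 20498. MKI67, the antigen of cycling cells, was listed at 16148, 17802 and 18905, and the replication helicase gene MCM7 at 15856, 15991 and 15242. CCND1, the cyclin that drives entry into S phase, was listed at 41635, 33658 and 42038. CDKN2A, which encodes the p16 inhibitor and the p53 activator ARF, was expressed at 3164, 5157 and 4027, and CDKN1C alone of the 25 cell cycle regulators was below the limit. The list gave no share of dividing cells.

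Antigen presentation and checkpoint genes were expressed in 19 of 27 cases (70.4%). B2M, the light chain of class I molecules, was at 431 ppm and HLA-B at 311. Reads of HLA genes can be split among near-identical copies, so their values are uncertain. CD274, the checkpoint ligand PD-L1, was listed at 1588, 1335 and 1773, and CD276 at 5592 ± 115. The class II gene HLA-DRA and the costimulator CD86 were at 0. Among 23 imprinted genes 13 were expressed, with GNAS (48627 ± 1697), MEG3 (6592 ± 427), PEG10 (6027 ± 482) and MEST (5813 ± 693) among the 7 with a mean of at least 1000. H19, DLK1, NDN and NNAT were at 0. IGF2 was below the limit, and 73.7% of its exon bases overlap another gene on the same strand.

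In some families nearly every gene was listed at 0. Of 385 olfactory receptor genes 366 were at 0 and 2 were expressed, OR2W3 (265, 267 and 229) and OR2B6 (17, 22 and 25). All 39 beta-defensins were at 0. Of 94 keratin-associated proteins 86 were at 0, of 22 UDP-glucuronosyltransferases 19 were at 0, and of 329 immunoglobulin variable segments none was expressed. Cancer-testis and germ cell genes were expressed in 1 of 27 cases, TEX15 (81, 78 and 60). By contrast 454 of 516 zinc finger genes (88.0%) were expressed, and of 24 claudins 6 were, with CLDN11, a tight junction protein of oligodendrocytes and Sertoli cells, at 13803, 15740 and 14999. These family examples were picked after their values were seen. The longest run of neighbouring protein-coding genes at 0 held 66 genes on chromosome 11, from OR4B1 to APLNR (48216810 to 57237314, GRCh38).

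Outside protein-coding genes, 663 of 7535 lincRNA genes (8.80%) and 792 of 5555 antisense genes (14.3%) were expressed. NEAT1, the scaffold of nuclear paraspeckles, was listed at 29451, 22819 and 28651. NORAD, a cytoplasmic RNA that binds Pumilio proteins, was listed at 22023, 18084 and 21524, and MALAT1 at 7518, 6699 and 8562. Per length NORAD stood at 466 ppm, NEAT1 at 143 and MALAT1 at 104. Processed pseudogenes, which are copies of spliced mRNAs, were expressed in 321 of 10176 cases (3.15%), and these share sequence with their parents, so their values are uncertain. Small RNA classes lie outside poly(A) selection and are not described.

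Zeros were frequent among genes whose exon bases are nearly all shared with another gene on the same strand. Among 386 protein-coding genes that share at least 95% of their exon bases with another gene on the same strand, 359 (93.0%) were listed at 0, against 3717 of 16733 (22.2%) that share under 1%. Smaller overlaps did not go with more zeros throughout: the share was 12.7% of 2297 genes sharing from 1% to below 50% and 43.9% of 494 sharing from 50% to below 95%. The following genes are known to be used by many kinds of cell, and were chosen here after their values were seen. The heat shock gene HSPA1A, which has a near-identical neighbour in HSPA1B, was at 2, 1 and 1, and the nuclear matrix gene MATR3 was at 92, 78 and 62. The glycolytic enzyme gene ALDOA was at 301, 816 and 664, and 42.3% of its exon bases are shared on the same strand. CD68, a lysosomal gene and a member of the macrophage list, was at 5, 7 and 6 with 81.7% of its exon bases shared, and the peptide transporter TAP2 was at 0 with 32.3% shared. LRAT, PDPN, ELN and ALB share no exon bases with another gene on the same strand.

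The 3 libraries were close to each other. Across expressed genes, log2(value + 1) correlated at 0.993 to 0.994 between pairs of libraries, a description over genes that are not independent. The median coefficient of variation was 19.9% for genes with a mean of 10 to 100, 7.87% for 100 to 1000 and 5.34% for 1000 to 10000. Of 11570 genes with a mean of at least 100, 34 (0.294%) differed at least 2-fold between the highest and the lowest library. With genes that bear only a clone name left out, the 10 largest ratios among these were those of MTCO1P12, RAB5IF, ANGPTL4, RPS7P1, MMP3, PCSK1N, RPS15P4, BCYRN1, ALDOA and C4orf48. MTCO1P12, a nuclear copy of mitochondrial sequence, was listed at 917, 294 and 239, a ratio of 3.84. RAB5IF was listed at 365, 1288 and 573, a ratio of 3.53.

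Several secreted inflammatory factors, though not all, were lowest in replicate 2. MMP3, the matrix protease stromelysin 1, was listed at 725, 240 and 585, CXCL1 at 885, 509 and 1124, CXCL2 at 524, 264 and 593, and the granulocyte-macrophage factor CSF2 at 273, 111 and 297. CXCL8 and IL1B, given above, were also lowest there. ANGPTL4, a lipoprotein lipase inhibitor, had its lowest value in the same library (200, 63 and 159). Of the 13 expressed chemokines 6 were lowest in replicate 2 and 5 were highest there, among them CCL2 (383, 452 and 426) and CCL26 (114, 125 and 113). In the interleukin list 12 of 20 expressed genes had their lowest value in replicate 2, against 35% of all expressed genes. HOX genes had their lowest value in replicate 1 in 20 of 25 cases (80%), against 33.1% of all expressed genes. This was not particular to HOX genes. Replicate 1 was also lowest in 8 of 9 tropomyosin and myosin light chain genes and in 9 of 11 expressed lineage factors of other tissues. The mitochondrially encoded share was 2.48%, 2.79% and 3.38% in replicates 1, 2 and 3, and MT-ND5 was listed at 61788, 70608 and 108975. The inflammatory genes and the HOX genes were singled out here after their values were seen.

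Replicate 2 also deviated with the base composition of transcripts. Over 10947 protein-coding genes with a mean of at least 100, cut into 5 equal groups by the GC content of a principal transcript, the median log2 deviation of replicate 2 from the gene mean ran from -0.05 in the group lowest in GC (31.8% to 41.1% GC) to 0.05 in the highest (58.4% to 74.5%). In replicate 3 the same values were 0.03 and -0.05, and in replicate 1 they were 0.02 and -0.01. Of the genes named above as lowest in replicate 2, CXCL8 has 33.4% GC, MMP3 44.8%, CXCL1 45.6%, IL1B 45.7%, CXCL2 46%, CSF2 50.3% and ANGPTL4 63.3%, against a median of 48.4%. Whether base composition has a part in their low values in replicate 2 was not tested. The 15 HOX genes of this set had a median of 54.5% GC.

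**Figure D5:**
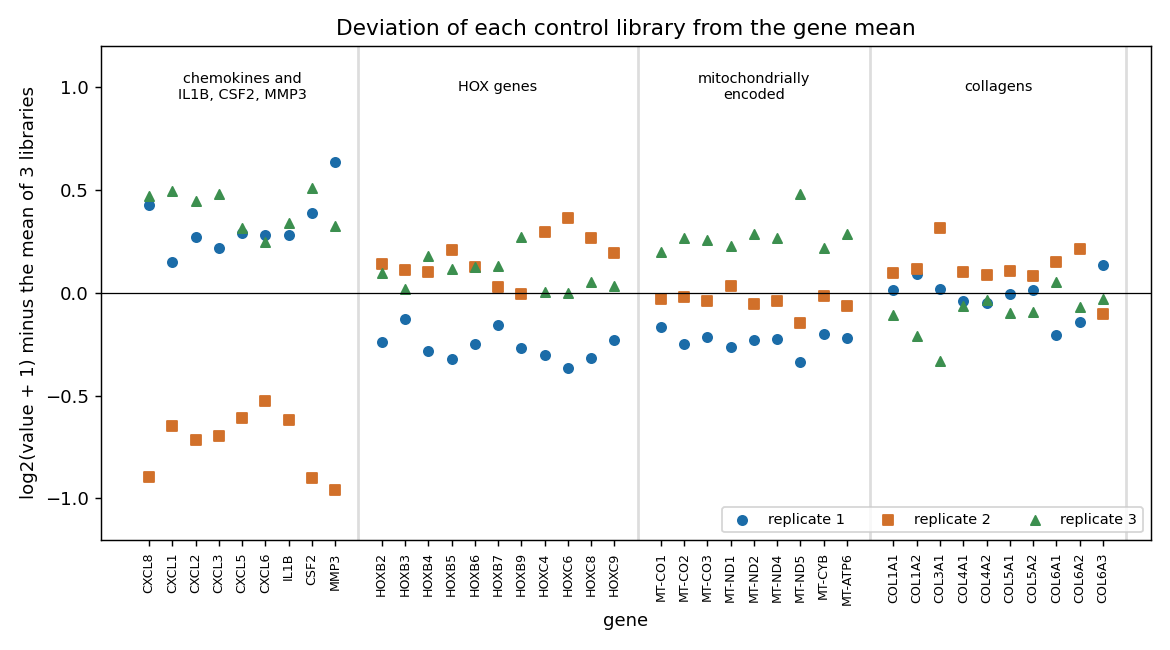
Difference of log2(value + 1) in each control library from the mean of the 3 (linear axis), for inflammatory genes, HOX genes, mitochondrially encoded genes and collagens, with a symbol per library. Replicate 2 is lowest in all 9 inflammatory genes drawn, and replicate 1 in all 11 HOX genes and all 9 mitochondrially encoded genes drawn. No library is lowest throughout the collagens. The HOX genes drawn are a part of the 25 expressed, of which 20 were lowest in replicate 1. The inflammatory and mitochondrially encoded genes drawn are also a selection. CCL2 and CCL26, highest in replicate 2, and MT-RNR2, lowest in replicate 2 (66798, 65187 and 76699), are not drawn.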

How the data were processed

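Poly(A) RNA of 3 control LX-2 libraries (siCTL) was described. Per the submitters' processing notes, STAR, HTSeq, DESeq2 and the build GRCh38 were used, without versions. Which annotation was counted, and with which strand setting, is not given in the sources used here. Whole-number normalized counts were deposited and are treated here as a score: the authors scaled them between libraries, and they are neither raw counts nor per length. Between 1 and 40, 9 integers never occur in the column of replicate 3 (none are missing in replicates 1 and 2), so a value need not be a read count, and no interval or lower limit from counting was computed.

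Each gene's mean and SD over the 3 libraries were computed with Python 3.11.15, numpy 2.4.6 and pandas 2.3.3, and plots were made with matplotlib 3.10.9. Genes with a mean of at least 10 were called expressed. Lengths, gene types and shared exon bases came from GENCODE 29 (GRCh38), to which 58496 of 60669 gene identifiers matched. The 2173 without a match held 0.0223% of the values. Promoter windows came from RefSeq (GRCh38.p14). The per-length step was checked on simulated data. In all, 48 gene lists and 98 ligand and receptor pairs were used. The members and lists were chosen with earlier results of these data known. The genes named are the 30 highest by level, the 15 highest per length and the 7 markers. Up to 8 expressed and 8 low members per list were named in order. Expressed pairs, the 10 genes with the largest ratio between libraries (clone names left out) and the most abundant noncoding genes were also named. Genes outside this rule, among them SRF, ADAMTS12, RARA, RARB, RXRA, ADORA2B and CD274, were chosen after their values were seen. Some genes that the rule takes are not reported here. Alternatives covered the expression limit, the scaling, the length, the pseudocount and leaving out each library.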

Additional observations from a re-analysis of the deposited data

How the results depend on the processing

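No paired analysis was possible because 1 group was described and no test was made. The shares held by the most abundant genes moved with the scale: per length the 10, 100 and 1000 highest genes held 12.4%, 29.5% and 59.2%, without the mitochondrially encoded genes 5.33%, 17.4% and 49.0%, and the 1000 highest held 50.7% among protein-coding genes alone. Ratios between genes moved with the length used. With the longest and with a principal transcript, COL1A1 to COL1A2 was 11.02 and 9.95, COL4A2 to COL4A1 2.12 and 2.12, ACTG1 to ACTA2 11.8 and 11.8, KRT18 to KRT8 2.15 and 2.14, PDGFRB to PDGFRA 48.2 and 48.2, and ACTG1 to ACTB 1.31 and 1.12. TPM4 exceeded TPM1 by 2.31 with merged exons but not with a principal transcript (0.639). The mean correlation between libraries was 0.9933 with a pseudocount of 0.5, 0.9955 with 8 and 0.9951 for genes with a mean of at least 50. Leaving out 1 library gave 15590 to 15687 expressed genes, 35874 to 37341 genes at 0 and 60 or 61 expressed pairs. Counts of expressed list members moved by over 1.5 times in these lists: with a limit of a mean of 50, resting stellate 13, macrophage 1, leukocyte 1, neural crest and glia 3, TGF-beta ligands 10, TNF ligands 5, interferons 0, Wnt, Notch and hedgehog ligands 5 and other lineage factors 7, and with a limit of 1 ppm, resting stellate 13, portal fibroblast 3, neural crest and glia 3, myosin heavy chains 2, other lineage factors 6 and germ cell genes 0. Genes sharing under 1% of exon bases were at 0 in 22.2%, an alternative added after seeing the data, as were the ratios without 1 library. Among the ratios run in this way, only TPM4 to TPM1 and COL5A1 to COL5A2 turned direction. Shares of gene classes changed order with the scale. Mitochondrially encoded genes were below ribosomal protein genes by deposited values (2.89% and 2.94%) and above them per length (11.8% and 4.22%). Collagens were above actins by deposited values (1.14% and 1.07%) and below them per length (0.476% and 1.37%). The read depth behind the scaled values limits what can be said of genes at or near 0.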
